A study of Mus musculus with 4 samples.

Results

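Necab1 thalamic glutamatergic neurons are excitatory neurons of the thalamus in which Necab1, a neuronal calcium-binding protein gene, was counted more often than Lef1 and Synpo2 together. They made up 433 of the 32291 nuclei that passed the mitochondrial filter in the 4 snRNA-seq libraries of mouse thalamus. Members were chosen by measured values, the UMI counts of 14 genes in each nucleus, where a UMI is a molecular tag that marks a single captured RNA molecule. A nucleus needed under 5% mitochondrial UMIs, at least 4000 UMIs and at least 4 of the 5 neuron markers Rbfox3, Snap25, Syt1, Myt1l and Celf4. It also needed at least 1 UMI of Slc17a6 and more of Slc17a6 than of Gad1 plus Gad2, at least 3 UMIs of Tcf7l2, at least 3 of Necab1 and more of Necab1 than of Lef1 plus Synpo2. Nuclei with 10 or more UMIs of Nwd2 or 5 or more of Npsr1 were left out.

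All mice were adult wild-type C57BL6 animals, and the tissue was taken 7 days after a microinjection into the right VPM and VPL, the ventral posteromedial and posterolateral nuclei. The NS group (2 libraries) received saline, and the COL group (2 libraries) received Coll IV, type IV collagenase, which digests the collagen of vessel walls and causes bleeding. Each library pooled the tissue of 3 mice, so the library was the replicate (n = 2 per group) and the spread between mice could not be seen. Unless stated otherwise, 4 values in a sentence stand for NS replicate 1, NS replicate 2, COL replicate 1 and COL replicate 2.

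Glutamatergic neurons are the relay cells of the thalamus. They load glutamate into vesicles with VGLUT2, the product of Slc17a6, and in the adult brain they are marked by the transcription factor Tcf7l2, which sets them apart from the GABA neurons of the reticular nucleus. Sensory relay nuclei such as VPM and VPL send sharply mapped input to cortex, whereas midline and intralaminar nuclei project more widely and are known for calcium-binding proteins such as calretinin, the product of Calb2. T-type calcium channels, HCN channels and potassium channels set whether a thalamic neuron fires in bursts or in single spikes.

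The libraries held 77557870, 68746459, 69513636 and 69511080 UMIs. Members numbered 92, 74, 178 and 89, and their summed UMIs came to 1584403, 992790, 3723500 and 1806203. The median member held 15710, 11538, 19080 and 20031 UMIs, and 4961, 4184, 5036 and 5451 genes. Members of NS replicate 2 were thus the fewest and the shallowest. Between 8 and 31 cell barcodes were shared by any pair of libraries, and at 0 of them were both nuclei members. No doublets were removed, and a version without nuclei that carried over 0.2% of another cell type's markers kept 421 members.

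In the UMIs of Necab1 and of Lef1 plus Synpo2, the members bordered the other thalamic glutamatergic nuclei without a gap. Whether they form a separate type was not tested. Of the 3372 thalamic glutamatergic nuclei that met every condition up to Tcf7l2, Nwd2 and Npsr1, 433 were Necab1 neurons and 2193 were Lef1/Synpo2 neurons, in which Lef1 plus Synpo2 reached 3 UMIs and exceeded Necab1. The median member carried 10.5, 6.5, 13 and 8 UMIs of Necab1 beside 4, 3, 6 and 3 of Lef1 plus Synpo2. Members with exactly 3 Necab1 UMIs numbered 34, members that were ahead of Lef1 plus Synpo2 by 1 UMI numbered 60, and members without any UMI of Lef1 or Synpo2 numbered 62. Just outside, 51 nuclei with enough Necab1 were tied with Lef1 plus Synpo2 and 52 were behind by 1 UMI. A further 44 nuclei fell short by 1 UMI of Tcf7l2 and 54 by 1 UMI of Necab1. A gate of at least 5 Necab1 UMIs kept 357 nuclei, and a gate of at least 1 Tcf7l2 UMI admitted 552.

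**Figure D1:**
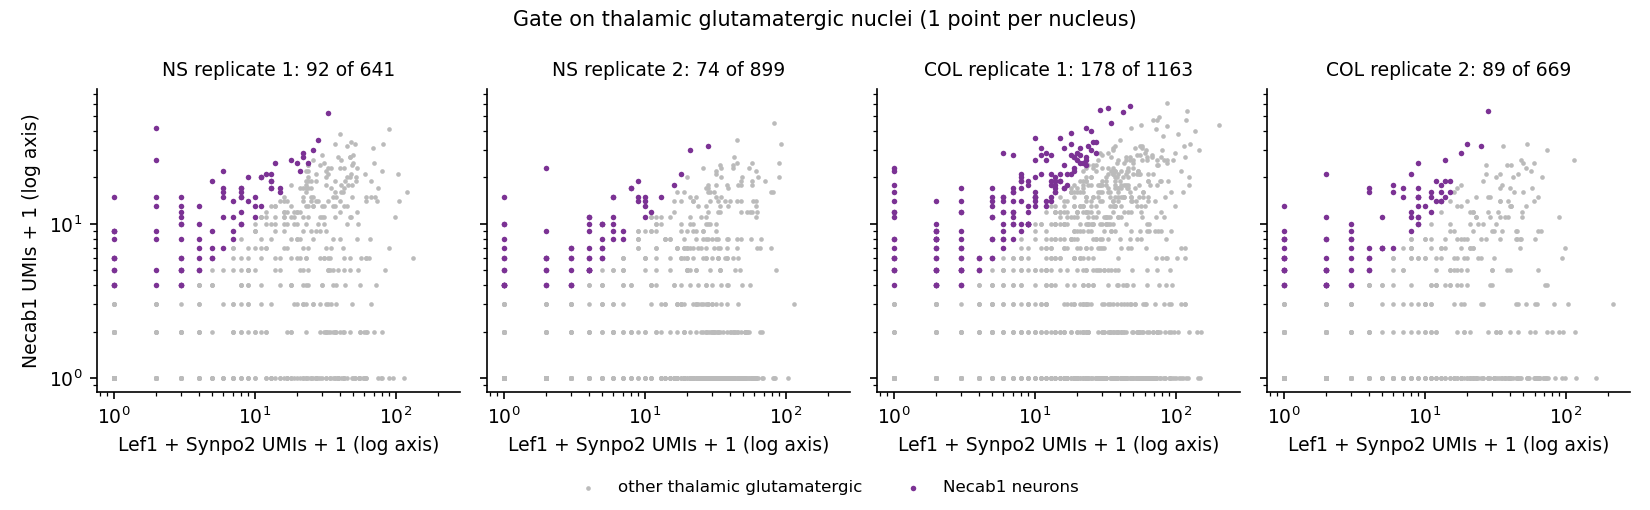
UMIs of Necab1 (vertical) against UMIs of Lef1 plus Synpo2 (horizontal) in each thalamic glutamatergic nucleus, with 1 added to both and both axes logarithmic, in a panel per library. Purple points are the 92, 74, 178 and 89 Necab1 neurons and grey points the other thalamic glutamatergic nuclei, and the members border the grey cloud without a gap.

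The markers in the name of these neurons were present in every library. Levels are given as CPM, the UMIs of a gene scaled to the total UMIs of the same nuclei and library. Slc17a6 stood at 237, 187, 205 and 219.8 CPM in members, and Tcf7l2 at 635, 666, 758 and 702 CPM. Necab1 stood at 726, 631, 733 and 515 CPM in members, at 327, 213, 323 and 203 CPM in Lef1/Synpo2 neurons, at 76.2, 55.3, 98.3 and 60.0 CPM in GABA neurons and at 16.9, 17.5, 39.8 and 20.0 CPM in oligodendrocytes. Necab1 was therefore well above the oligodendrocyte level in the Lef1/Synpo2 neurons too. Lef1, a transcription factor of Wnt signalling, stood at 114, 99.7, 92.4 and 51.5 CPM in members and 649, 804, 723 and 684 CPM in Lef1/Synpo2 neurons. These genes chose the members, so their values are a description without a test. In mm10, Necab1 lies on chromosome 4 from 14952245 to 15149794 on the minus strand, and Tcf7l2 on chromosome 19 from 55741820 to 55933654 on the plus strand.

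The other listed markers, Cntnap3 and Snx31, were not read by the gate, but they were proposed with results of these libraries known, so they are no independent support for the name. Cntnap3, a cell adhesion gene of the contactin-associated protein family (chromosome 13 from 64736182 to 64903955, minus strand), stood at 172, 92.7, 153 and 118 CPM in members and 37.1, 16.7, 57.9 and 39.9 CPM in Lef1/Synpo2 neurons. It was higher in members in all 4 libraries, and the lowest member value lay above the highest Lef1/Synpo2 value. Snx31, a sorting nexin gene (chromosome 15 from 36504062 to 36555573, minus strand), stood at 35.3, 27.2, 29 and 39.9 CPM in members and 28.5, 15.5, 24.8 and 16.4 CPM in Lef1/Synpo2 neurons, so the ranges overlapped. The call of Snx31 between the types (log2 fold change 0.48) was lost under 6 alternatives, also without NS replicate 2 or COL replicate 2. In nuclei thinned to 4000 UMIs, 37.2% of members had a UMI of Cntnap3, against 11.2% of Lef1/Synpo2 neurons and 1.84% of oligodendrocytes. For Snx31 the shares were 9.01%, 6.61% and 0.511%.

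Markers of other cells were measured with 5 genes a list. Those of GABA neurons summed to 53.0, 37.3, 24.4 and 36.0 CPM and those of habenular neurons to 31.6, 48.3, 43.0 and 41.0 CPM. The gate itself limited Gad1 and Gad2 of the GABA list and Nwd2 of the habenular list. Both sums were therefore partly fixed by the gate and are a description only. Oligodendrocyte markers summed to 542, 818, 492 and 780 CPM in members and to 475, 677, 406 and 916 CPM in Lef1/Synpo2 neurons. Astrocyte markers summed to 65.0, 41.3, 16.9 and 43.7 CPM. Markers of oligodendrocyte precursors summed to 52.4, 29.2, 26.3 and 73.1 CPM in members and to 30.9, 25.6, 20.9 and 41.0 CPM in Lef1/Synpo2 neurons, higher in members of all 4 libraries. Of these, Vcan (log2 fold change 0.60) and Pdgfra (1.17) were called higher in Necab1 than in Lef1/Synpo2 neurons in edgeR. The call of Vcan was lost under 6 alternatives and that of Pdgfra under 3, both also without COL replicate 2. The part of precursor RNA in the comparison of the types was not tested. Endothelial markers summed to 13.3, 14.1, 10.5 and 9.41 CPM in members and to 7.45, 16.1, 6.39 and 9.60 CPM in Lef1/Synpo2 neurons. Among them Cldn5 was at 0 UMIs in members of all 4 libraries, but Pecam1 had a UMI in 10.9%, 8.11%, 11.8% and 8.99% of members and was called higher than in Lef1/Synpo2 neurons (1.13). Markers of T and NK cells summed to 19.6, 21.2, 27.7 and 20.5 CPM in members and to 19.2, 13.1, 16.8 and 12.4 CPM in Lef1/Synpo2 neurons. Among these Cd3e was at 0 UMIs in members of all 4 libraries, but Skap1 had a UMI in 17.4%, 14.9%, 21.3% and 19.1% of members.

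Necab1 neurons made up a larger share of all nuclei in both COL libraries than in both NS libraries, but the groups overlapped in the share of thalamic glutamatergic neurons and after thinning to equal depth. The shares of all nuclei were 0.951%, 0.710%, 3.00% and 1.42%, with exact 95% Clopper-Pearson intervals of 0.767 to 1.17, 0.558 to 0.891, 2.58 to 3.47 and 1.14 to 1.75. The mean was 0.831% ± 0.170 (SD, n = 2) in NS and 2.21% ± 1.12 (SD, n = 2) in COL. The difference of 1.38 percentage points had p = 0.333 in a two-sided exact permutation test, the smallest p that 2 libraries against 2 allow. It was 0.590 without COL replicate 1 and 2.17 without COL replicate 2. All thalamic glutamatergic neurons were 6.63%, 8.63%, 19.6% and 10.7% of all nuclei, higher in both COL libraries, but 9.54%, 15.3%, 22.4% and 11.9% of nuclei with at least 4000 UMIs, where the groups overlapped.

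Within the thalamic glutamatergic neurons the groups overlapped. Necab1 neurons were 14.4% (11.7 to 17.3), 8.23% (6.52 to 10.2), 15.3% (13.3 to 17.5) and 13.3% (10.8 to 16.1) of them, and NS replicate 2 was the lowest. The difference between the group means was 3.01 percentage points, with an exact permutation p = 0.667. When each nucleus was thinned to 4000 UMIs before the gate, 89 members were left. Their shares of nuclei with at least 4000 UMIs were then 0.357%, 0.289%, 0.733% and 0.178%, with a difference of 0.132 points and an exact permutation p of 1. Over the same nuclei without thinning, the shares were 1.37%, 1.26%, 3.43% and 1.58%, with group means of 1.31% in NS and 2.51% in COL. After thinning, Necab1 neurons were 13.6%, 7.05%, 10.6% and 4.83% of thalamic glutamatergic neurons. The groups overlapped there, with NS replicate 1 the highest and COL replicate 2 the lowest, so the excess in COL was not kept. The intervals cover counting error only, and the part of depth in the share difference was not tested beyond this thinning.

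**Figure D2:**
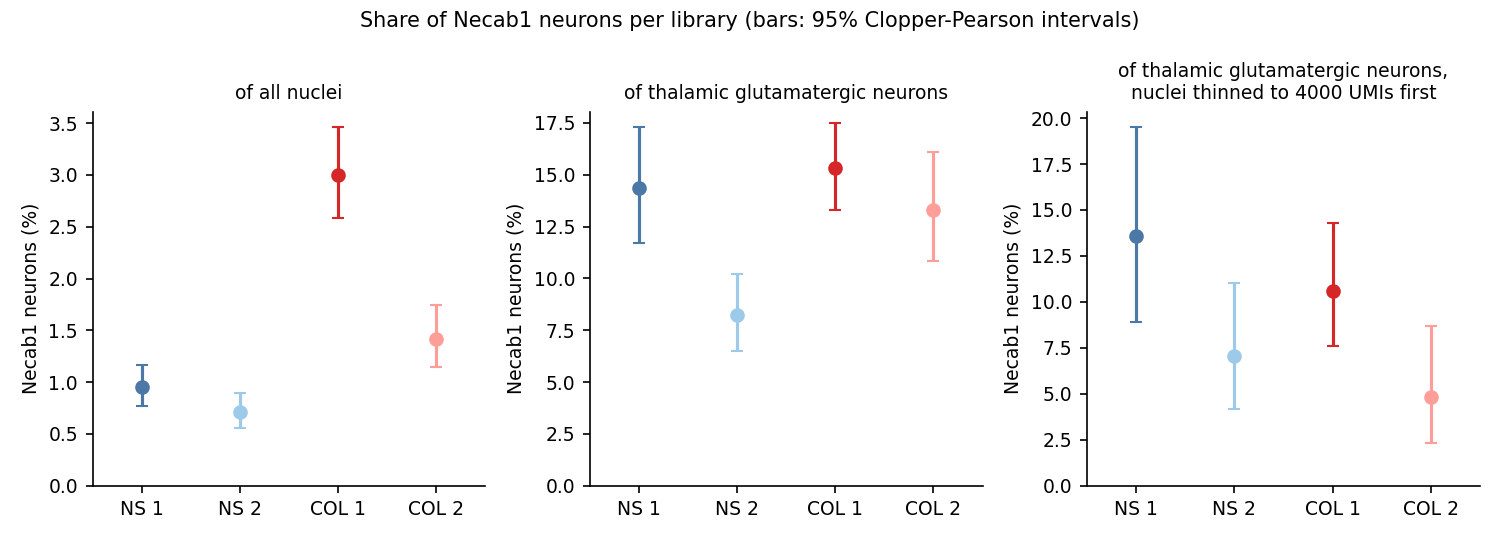
Necab1 neurons in percent (vertical axes from 0) of all nuclei, of thalamic glutamatergic neurons, and of thalamic glutamatergic neurons after thinning to 4000 UMIs, with a point per library and exact 95% intervals as bars. COL replicate 1 is highest among all nuclei at 3.00%, while the groups overlap within thalamic glutamatergic neurons.

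Necab1 neurons differed from Lef1/Synpo2 neurons of the same libraries in many genes. The comparison used edgeR's quasi-likelihood test on summed UMIs with the library as a block and Benjamini-Hochberg adjustment, and the 14 genes read by the gate were left out of the counts. Of 16951 genes tested, 1578 (9.31%) were higher and 1594 (9.4%) lower in Necab1 neurons at an adjusted p under 0.05, and the median log2 fold change over all genes was 0.01. Both types were taken from the same thalamic glutamatergic nuclei by opposing genes. Any gene that follows Necab1, Lef1 or Synpo2 across thalamic neurons can therefore appear here. Log2 fold changes between the types are Necab1 against Lef1/Synpo2 neurons.

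The genes with the largest excess in Necab1 neurons included Glis3 and Ror1. Glis3, a zinc-finger transcription factor gene, stood at 78.9, 48.3, 114 and 104 CPM in Necab1 neurons and 11, 6.1, 18.9 and 18.3 CPM in Lef1/Synpo2 neurons. In every library the Necab1 neurons were higher, with a log2 fold change of 2.58 ± 0.105 (SE) and an edgeR adjusted p of 1.25e-14. A UMI of Glis3 was found in 23.9%, 6.76%, 28.7% and 23.6% of members. A single nucleus held 21 of the 48 UMIs in NS replicate 2, and another 53 of the 188 in COL replicate 2. With the nucleus holding most Glis3 UMIs left out of each library, members stood at 66.9, 28.0, 102 and 75.5 CPM. Glis3 was also counted in oligodendrocytes, at 39.5, 26.3, 51.6 and 51.4 CPM. Ror1, a receptor tyrosine kinase that binds Wnt ligands, stood at 204, 154, 198 and 173 CPM against 33.9, 13.5, 50.9 and 42.3 CPM, a log2 fold change of 2.3 ± 0.137 (SE). The libraries of the types did not overlap for either gene. In nuclei thinned to 4000 UMIs, 33.9% of Necab1 neurons and 8.76% of Lef1/Synpo2 neurons had a UMI of Ror1.

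Cadps2, Syt10 and Rab3b were also among the genes with the largest excess. Cadps2, which primes dense-core vesicles, stood at 80.2, 129.9, 161 and 117 CPM against 26.3, 15.1, 29.5 and 33.8 CPM (log2 fold change 2.13 ± 0.143 (SE)). Syt10, a synaptotagmin calcium sensor, stood at 45.4, 39.3, 50.8 and 33.2 CPM against 9.11, 7.2, 7.89 and 6.35 CPM (log2 fold change 2.39 ± 0.139 (SE)). Rab3b, a small GTPase of synaptic vesicles, had a log2 fold change of 2.35 ± 0.144 (SE). For these genes the Necab1 neurons were higher in all 4 libraries without overlap. In oligodendrocytes Cadps2 stood at 40.9, 33.5, 136 and 126 CPM, a range that overlapped that of Necab1 neurons.

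Vwa5b1, Cpa6, Nek10 and Itga8 also stood among the genes named for an excess. Vwa5b1 stood at 75.1, 47.3, 76 and 48.7 CPM against 8.52, 4.2, 12.9 and 9.6 CPM, the largest log2 fold change of the named genes at 2.68 ± 0.139 (SE). Cpa6, a secreted carboxypeptidase, had a log2 fold change of 2.4, Nek10, a kinase, 2.23, and Itga8, an integrin subunit, 2.08. Their edgeR adjusted p-values lay between 8.25e-13 and 2.93e-09.

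The genes with the largest deficit in Necab1 neurons included markers of first-order relay neurons. Prkcd, protein kinase C delta, a marker of sensory relay nuclei, stood at 10.1, 6.04, 28.5 and 17.7 CPM in Necab1 neurons and 158, 221, 238 and 257 CPM in Lef1/Synpo2 neurons. The log2 fold change was −3.71 ± 0.159 (SE), with an edgeR adjusted p of 2.18e-14. In oligodendrocytes, which should lack it, Prkcd stood at 8.0, 14.2, 35 and 44.1 CPM, so its levels in Necab1 neurons and in oligodendrocytes lay in overlapping ranges. Slc17a7, which encodes VGLUT1, stood at 3.79, 6.04, 6.71 and 2.77 CPM against 21.5, 32.5, 32.9 and 31 CPM (log2 fold change −2.65 ± 0.191 (SE)), and its oligodendrocyte level of 2.22, 7.25, 7.87 and 6.68 CPM overlapped that in Necab1 neurons.

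Grin2c, Abhd12b, Adarb2 and Sox5 had large deficits too. Grin2c, the NMDA receptor subunit GluN2C, stood at 15.1, 5.04, 10.5 and 7.75 CPM against 68.1, 70.0, 81.2 and 90.0 CPM, a log2 fold change of −3.06 ± 0.157 (SE), with 20.0, 16.9, 19.2 and 13.9 CPM in oligodendrocytes. Abhd12b, a hydrolase gene, stood at 3.16, 15.1, 14.5 and 14.4 CPM against 174, 158, 169 and 196 CPM, the largest deficit at −3.94 ± 0.163 (SE) on the log2 scale, with 8.0, 5.14, 24.5 and 11.6 CPM in oligodendrocytes. Neither gene stood above the range of the oligodendrocytes in Necab1 neurons. Adarb2, an RNA-binding member of the ADAR family, stood at 235, 448, 335 and 332 CPM against 2041, 3426, 2198 and 2119 CPM (−2.97 ± 0.0939 (SE)). Sox5, a transcription factor, stood at 101, 25.2, 102 and 139 CPM against 554, 623, 675 and 588 CPM (−2.82 ± 0.181 (SE)), and NS replicate 2 was the lowest of the Necab1 neurons. Oligodendrocytes held 124, 125, 145 and 166 CPM of Sox5. Slco2a1, a prostaglandin transporter, had a log2 fold change of −3.24, Fras1, an extracellular matrix gene, −2.94, Tspear −2.79 and Fam163a −2.65.

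The 19 genes above kept their direction and their call in all 323 refits under 17 alternative settings. The settings with a lower UMI minimum and without the mitochondrial filter selected the same nuclei of both types as the main gate. Refits under those settings therefore repeated the main fit and could not have changed a call. Of the 160 genes that were called between the types and are named or listed here, 73 kept the call under every alternative, 33 lost it only when the library block was left out, and 54 lost it under another alternative. None changed direction.

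**Figure D3:**
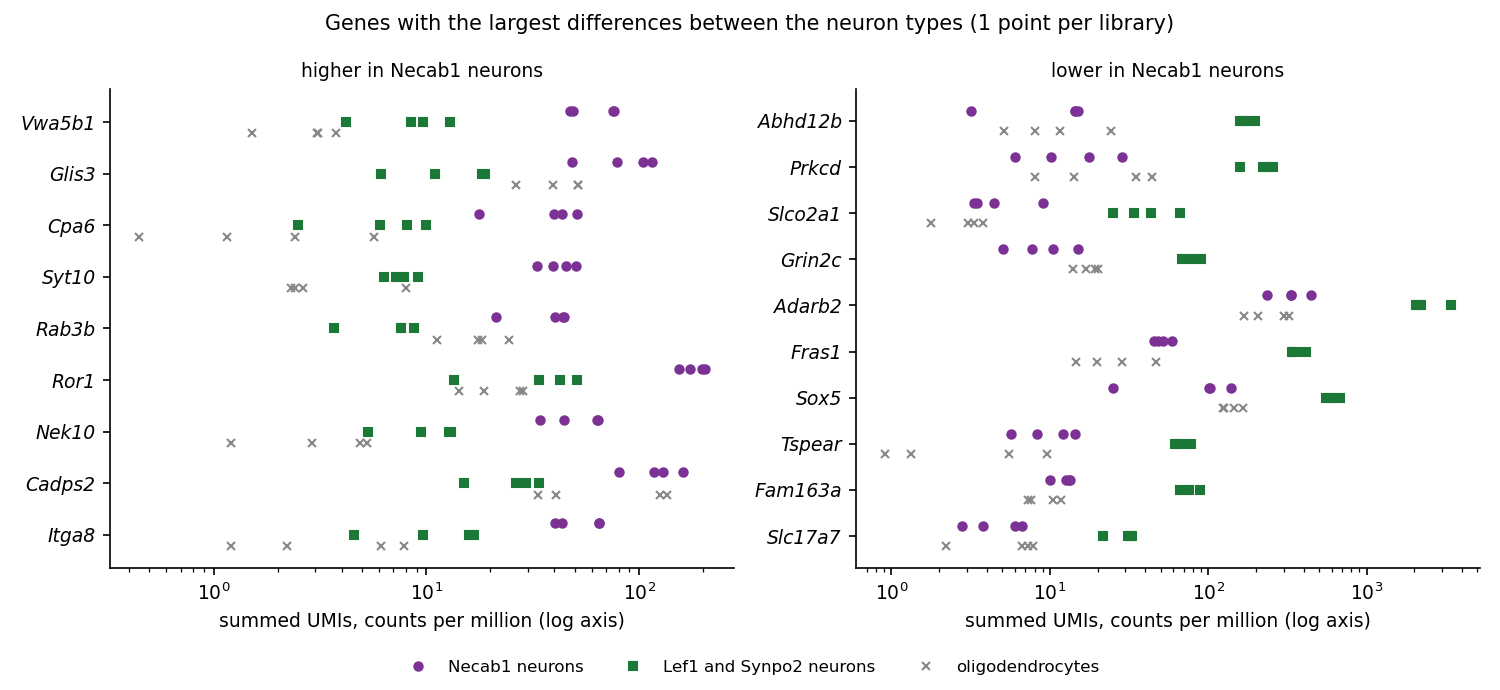
CPM on a logarithmic horizontal axis, with a point per library, for 9 genes with the largest excess (left) and the 10 with the largest deficit (right) in Necab1 neurons (purple circles), Lef1/Synpo2 neurons (green squares) and oligodendrocytes (grey crosses). Purple and green points do not overlap for any of the 19 genes. In Necab1 neurons several genes, among them Prkcd, Abhd12b, Grin2c, Slc17a7, Adarb2 and Sox5, lie among or near the oligodendrocyte points.

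Transcription factors of the thalamus differed in both directions. Of 12 tested, 4 were higher and 3 lower, against 9.31% higher and 9.4% lower over all genes tested, and the list median was 0.07. Lhx9, a LIM homeobox gene of thalamic neurons, was higher at 63.4 ± 9.84 CPM against 32.4 ± 9.2 CPM (mean ± SD over 4 libraries) with a log2 fold change of 0.86 ± 0.107 (SE) and an edgeR adjusted p of 1.29e-06. Foxp2, a forkhead factor, was higher at 589 ± 16.8 CPM against 369.9 ± 37.7 CPM (0.57 ± 0.0813 (SE)), and Lhx2 was higher at 33 ± 5.0 CPM against 17 ± 3.14 CPM (0.86 ± 0.129 (SE)). Rora, a nuclear receptor of sensory relay neurons, was lower at 2723 ± 214 CPM against 4206 ± 252 CPM (−0.74 ± 0.0768 (SE), edgeR adjusted p = 6.59e-08). Prox1 was lower (−0.4), and the calls of Gbx2 (1.21) and Rorb (−0.32) were each lost under 6 alternatives, among them the fits without COL replicate 2.

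Markers of thalamic nuclei numbered 10, of which 3 were higher and 4 lower (all genes 9.31% and 9.4%), with a median of −0.60. Calb2 stood at 57.4, 52.4, 40.3 and 38.8 CPM in Necab1 neurons and 24.2, 13.8, 11.3 and 18.3 CPM in Lef1/Synpo2 neurons, and the groups of libraries did not overlap (log2 fold change 1.42 ± 0.137 (SE), edgeR adjusted p = 2.11e-08). In oligodendrocytes, which should lack Calb2, it stood at 36, 23, 7.43 and 9.0 CPM, below the Necab1 neurons of the same library in each case. Calb1, calbindin, stood at 61.2, 57.4, 65.8 and 42.6 CPM against 68.6, 49.2, 56.4 and 46.4 CPM (log2 fold change −0.05 ± 0.101 (SE), edgeR adjusted p = 0.803), and the ranges overlapped. Beside Prkcd and Slc17a7, Tnnt1 was lower (−2.46) and Ntng1 slightly lower (−0.39). Calls for Cbln2 (0.71) and Nos1 (1.34) were lost under 6 and 3 alternatives, the former also without either COL library.

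Calretinin and calbindin marked few nuclei at a fixed depth. With each member thinned to 4000 UMIs, 16, 7, 30 and 12 members had a UMI of Calb1 but none of Calb2, and 16, 10, 16 and 6 had Calb2 but no Calb1. Both genes were seen in 2, 2, 5 and 3 members, and neither in 58, 55, 127 and 68. Counts this low do not show whether a nucleus lacked the transcript.

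Calcium-binding proteins of neurons were split, with 7 higher and 5 lower of 20 (all genes 9.31% and 9.4%). Kcnip1, a calcium sensor that binds Kv4 potassium channels, stood at 355, 348, 540.4 and 466 CPM in Necab1 neurons and 75.6, 52.9, 152 and 152 CPM in Lef1/Synpo2 neurons. It was over 3 times as high in every library, with a log2 fold change of 1.95 ± 0.109 (SE) and an edgeR adjusted p of 3.27e-12. Caln1, a calneuron gene, was higher at 157 ± 47.7 CPM against 54 ± 22.2 CPM (1.44 ± 0.101 (SE)). Hpcal1 (1.3) and Kcnip2 (1.13) were also higher. Kcnip3, which binds Kv4 channels and also represses transcription, was lower at 58.2 ± 14.8 CPM against 113 ± 30.4 CPM (−1.02 ± 0.138 (SE)), and the Necab1 relative Necab3 was lower (−0.94). Camk2a, also on the list, encodes a calmodulin-dependent kinase and not an EF-hand protein, and was lower (−0.71).

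Ion channels that shape thalamic firing differed in both directions. Of 10 HCN and two-pore potassium channel genes, 2 were higher and 3 lower, against 9.31% higher and 9.4% lower over all genes. Hcn2, a hyperpolarization-activated channel gene that prevails in thalamic relay neurons, stood at 65.4 ± 16.4 CPM against 68.9 ± 14.3 CPM, with a log2 fold change of −0.19 ± 0.0948 (SE) that did not pass (edgeR adjusted p = 0.186). The leak channel gene Kcnk9 was lower (−0.78) and Kcnk2 higher (0.64).

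Calcium channel genes numbered 17, of which 6 were higher and 8 lower, against 9.31% higher and 9.4% lower over all genes tested. Cacna1e, the R-type channel, stood at 393, 394, 395 and 445 CPM against 174, 125, 165 and 195 CPM (1.2 ± 0.0826 (SE), edgeR adjusted p = 8.00e-11). Among the T-type genes, Cacna1i was higher at 41.2 ± 5.48 CPM against 18.1 ± 7.49 CPM (1.08 ± 0.133 (SE)) and Cacna1g, the main T-type gene of relay neurons, was lower at 154 ± 35.9 CPM against 191 ± 28 CPM (−0.41 ± 0.0888 (SE)). The call of Cacna1g was lost under 2 alternatives, and that of the third T-type gene, Cacna1h (0.91), under 6, also without NS replicate 2 or COL replicate 1. Cacna1c, an L-type channel, was lower at 1544 ± 247 CPM against 3070.3 ± 342 CPM (−1.11 ± 0.0777 (SE)). Cacng3, listed with the channel subunits, encodes an auxiliary protein of AMPA receptors and was higher (1.46).

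Of 20 potassium channel genes, 5 were higher and 9 lower, where all genes tested had 9.31% and 9.4%. Kcnh1, an ether-a-go-go channel, was higher at 49.1 ± 8.79 CPM against 15.5 ± 7.56 CPM (1.53 ± 0.158 (SE)), and so was Kcnq5, an M-current channel (0.99 ± 0.0993 (SE)). Kcnc2, a Kv3 channel of fast-spiking neurons, was lower at 1254 ± 126 CPM against 2686 ± 307 CPM (−1.21 ± 0.0776 (SE)), with its relative Kcnc1 (−0.95) and the Kv4 channel gene Kcnd3 (−1.0). Of 10 sodium channel genes, 3 were higher and 4 lower, beside the same shares of all genes. Scn9a was higher at 161 ± 13.8 CPM against 95 ± 14.2 CPM (0.66 ± 0.0834 (SE)), Scn3b was higher (0.65), and Scn8a (−0.43) and Scn1a (−0.35) were lower.

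Glutamate receptor genes were divided by subunit. Of 17 ionotropic genes, 5 were higher and 7 lower (all genes 9.31% and 9.4%), and the NMDA receptor subunits other than Grin3a and Grin2d were lower. Beside Grin2c, Grin2b was lower at 938 ± 41 CPM against 1749 ± 216 CPM (−1.0 ± 0.0807 (SE), edgeR adjusted p = 1.06e-09), Grin2a was lower (−0.85 ± 0.0781 (SE)) and Grin1, the subunit that every NMDA receptor needs, was lower (−0.42 ± 0.0763 (SE)). Grin3a was higher at 373 ± 29.7 CPM against 209 ± 25.9 CPM (0.72 ± 0.0802 (SE)), and Grin2d had a log2 fold change of 0.03 ± 0.0978 (SE) that did not pass (edgeR adjusted p = 0.875). Of the 4 AMPA receptor genes Gria3 (−0.92) and Gria4 (−0.26, a call lost under 5 alternatives) were lower, Gria2 was higher (0.31, a call lost under 1 alternative), and Gria1 did not pass (0.14).

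Of 9 metabotropic glutamate receptor and Homer genes, 3 were higher and 2 lower (all genes 9.31% and 9.4%). Homer2, a scaffold of the postsynaptic density, was lower at 42.5 ± 9.18 CPM against 121 ± 14.8 CPM (−1.57 ± 0.117 (SE), edgeR adjusted p = 2.66e-10). Grm8, a presynaptic inhibitory receptor, was higher at 619, 743, 649 and 513 CPM against 260.3, 187, 282 and 259 CPM (1.24 ± 0.102 (SE)). For Grm8 the libraries of the types did not overlap.

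GABA receptor genes numbered 15, of which 7 were higher and 5 lower, against 9.31% higher and 9.4% lower over all genes tested. Gabra2 was higher at 434 ± 22.7 CPM against 194 ± 34.1 CPM (1.06 ± 0.0841 (SE), edgeR adjusted p = 8.93e-10), Gabrg1 at 51 ± 6.04 CPM against 18.8 ± 2.35 CPM (1.3 ± 0.112 (SE)) and Gabra5 at 75.4 ± 1.06 CPM against 33.2 ± 6.74 CPM (1.07 ± 0.106 (SE)). Gabrd, the delta subunit of the extrasynaptic receptors that give thalamic neurons a tonic current, was lower at 24.7 ± 4.94 CPM against 69.1 ± 17.5 CPM (−1.49 ± 0.129 (SE)). Its partner subunit Gabra4 was lower (−0.65 ± 0.116 (SE)), and so was Gabbr2 of the GABA-B receptor (−0.91 ± 0.0825 (SE)).

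Of 21 genes of transmitter release, 5 were higher and 9 lower (all genes 9.31% and 9.4%), with log2 fold changes within 1 in either direction. Syn2, a synapsin, was higher at 645 ± 72.5 CPM against 340.0 ± 25.6 CPM (0.8 ± 0.0757 (SE)), and Cplx1, a complexin, lower at 43.4 ± 6.55 CPM against 65.7 ± 5.93 CPM (−0.73 ± 0.0972 (SE)). Syt7, a slow calcium sensor of release, was lower (−0.64). Of 25 adhesion genes, 9 including Cntnap3 were higher and 5 lower, beside the same shares of all genes. Nrxn3, a neurexin, was lower at 1291 ± 111 CPM against 2847 ± 569.7 CPM (−1.24 ± 0.0904 (SE)), and so were Pcdh9 (−0.82) and Cdh12 (−0.75). Cntnap3 differed by 1.72 ± 0.116 (SE), while its relative Cntnap4 differed by 0.58 ± 0.0901 (SE).

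Peptide, opioid and neurotrophin genes were called in 1 direction, with 5 higher and 0 lower of 14 tested by edgeR. Over all genes tested, 9.31% were higher and 9.4% lower, so 0 lower of 14 is near the share of all genes. An unadjusted p under 0.05 was found for 6 of the 14, as for 29.1% of all genes tested. The list median was 0.31, against 0.01 over all genes. Oprk1, the kappa opioid receptor, stood at 29, 10.1, 23.4 and 20.5 CPM in Necab1 neurons and 8.99, 2.7, 7.3 and 8.52 CPM in Lef1/Synpo2 neurons (1.5 ± 0.17 (SE), edgeR adjusted p = 2.81e-07). Oprm1, the mu opioid receptor, stood at 237, 175, 202 and 179 CPM against 162, 95.3, 149 and 106 CPM (0.52 ± 0.0832 (SE)). Both opioid receptor genes were higher in Necab1 neurons within each of the 4 libraries. Ntrk3, the receptor of neurotrophin 3, was higher at 382 ± 49.9 CPM against 204 ± 57.7 CPM (0.82 ± 0.0866 (SE)), Bdnf at 28.7 ± 3.74 CPM against 15.4 ± 2.21 CPM (0.76 ± 0.134 (SE)) and Adcyap1, the peptide PACAP, at 8.88 ± 2.7 CPM against 3.62 ± 2.02 CPM (1.22 ± 0.283 (SE)). The call of Adcyap1 was lost under 3 alternatives, and those of Oprk1, Oprm1 and Bdnf under 1 each.

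Immediate early genes, which neurons switch on after activity, were also called in 1 direction, with 4 higher and 0 lower of 13 tested by edgeR. The shares over all genes tested were 9.31% higher and 9.4% lower, so 0 lower of 13 is near the latter. Of the 13, 9 had an unadjusted p under 0.05, against 29.1% of all genes tested. Fos stood at 15.8, 10.1, 6.71 and 5.54 CPM in Necab1 neurons and 5.2, 3.6, 3.81 and 1.76 CPM in Lef1/Synpo2 neurons, and was higher within each library (1.2 ± 0.255 (SE), edgeR adjusted p = 0.00118). Nr4a3 stood at 12, 17.1, 18 and 6.09 CPM against 6.74, 8.19, 9.4 and 3.24 CPM (0.83 ± 0.188 (SE)). Calls for Npas4 and Junb were lost under 7 and 5 alternatives, among them the fits without either NS library, and 0 genes of the list were called without the library block. The call of Nr4a3 was lost without COL replicate 1. Dusp1, of the same list, had a log2 fold change of −0.65 ± 0.283 (SE) that did not pass.

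Of 20 nerve injury and stress genes, 2 were higher and 3 lower in Necab1 neurons, with changes from −2.11 to 0.88 on the log2 scale, and 7 had an unadjusted p under 0.05. These shares were near those of all genes tested, of which 9.31% were higher, 9.4% lower and 29.1% at an unadjusted p under 0.05. Itga7, an integrin subunit, was lower at 2.8 ± 0.851 CPM against 10.9 ± 0.883 CPM (−2.11 ± 0.263 (SE)), and Csf1, a growth factor of microglia, was higher at 11.2 ± 4.73 CPM against 5.65 ± 4.0 CPM (0.88 ± 0.224 (SE)), a call lost under 2 alternatives. Of 9 heat shock genes, 1 was lower, also a share near that of all genes, namely Hsph1 (−0.53). With edgeR and with DESeq2, 0 of 15 nuclear-encoded respiratory chain genes and 0 of 13 ribosomal protein genes were called, with 1 gene in each list at an unadjusted p under 0.05 in edgeR, against 29.1% of all genes tested. Of genes the study follows, Abca1, a cholesterol exporter, was lower (−0.48 ± 0.16 (SE)), a call lost under 10 alternatives and without any of the 4 libraries, while Apoe (0.05 ± 0.0869 (SE)) did not pass.

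**Figure D4:**
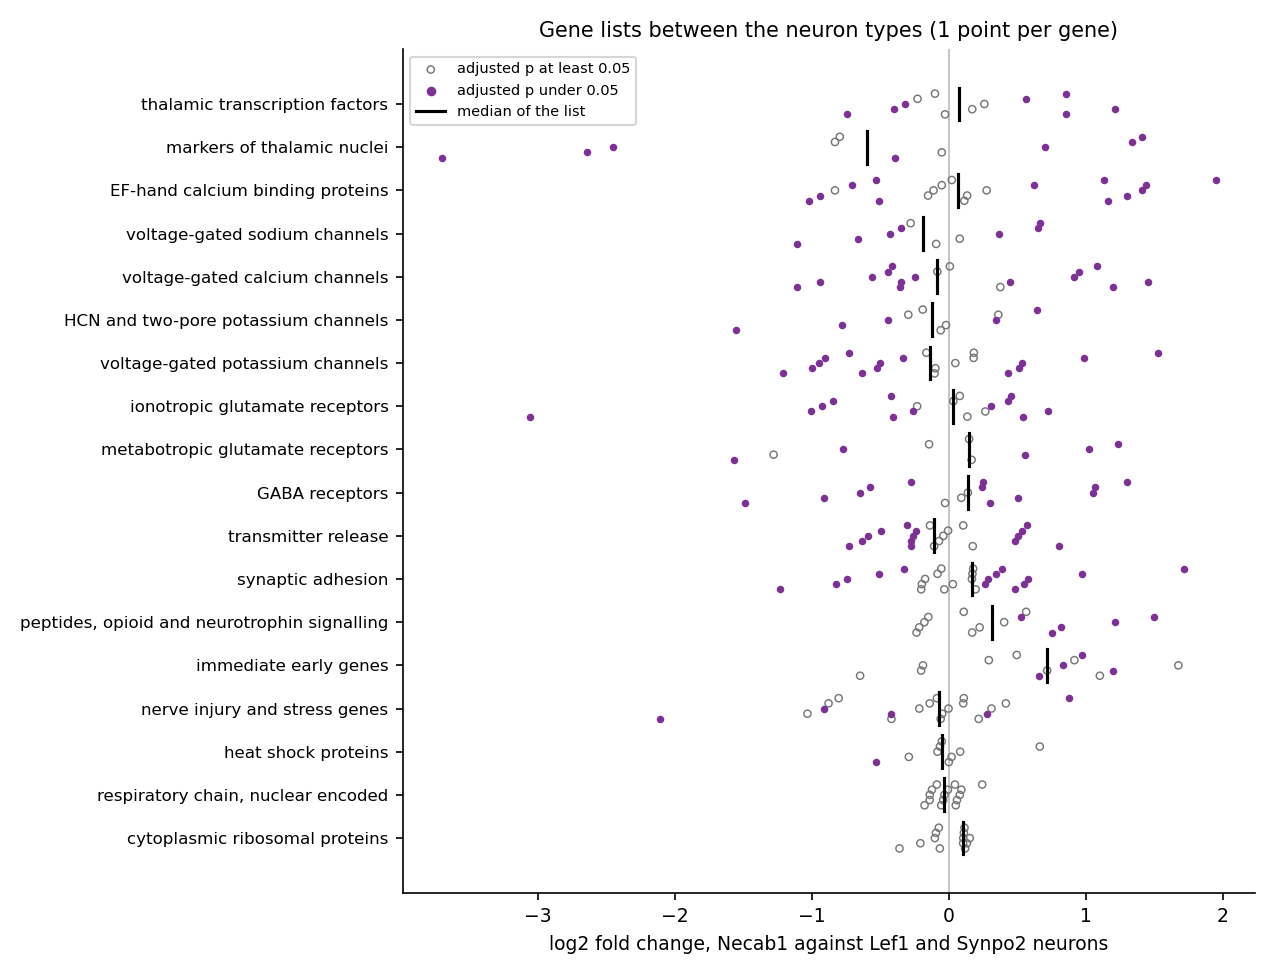
Log2 fold change between Necab1 and Lef1/Synpo2 neurons (horizontal) for each gene of 18 lists, with filled points for edgeR adjusted p under 0.05, open points for the other genes and a bar at the median of each list. Channel and receptor lists spread to both sides of 0, whereas the called genes of the peptide and immediate early lists all lie to the right.

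Between the COL and NS groups, few genes of the Necab1 neurons passed, and those that passed lay at the edge of the threshold. With edgeR's quasi-likelihood test on summed UMIs of members, 13 of 11927 genes (0.109%) were higher in COL and 52 (0.436%) lower. The smallest adjusted p was 0.0241, and 64 of the 65 lay between 0.04 and 0.05. The groups of libraries did not overlap for 5688 genes, or 47.7% of those tested. The number called was 349 without NS replicate 1, 331 without NS replicate 2, 357 without COL replicate 1 and 1059 without COL replicate 2, and 1 when only members with at least 8000 UMIs were used. Of the calls, 20.0% were higher in COL, against 6.02% in thinned members, 11.7% without NS replicate 1, 13.2% with DESeq2, 32.8% without a filter on low counts and 43.4% without COL replicate 1. None of the 18 genes named for this comparison changed direction under an alternative that gave a value for it. All 18 lost the call with at least 8000 UMIs, with at least 5 Necab1 UMIs and without the 5% of members with the most UMIs. The same held with plain library sizes, a setting chosen after seeing the data. With DESeq2, 5 of the 18 lost the call. In members thinned to 4000 UMIs 12 of the 18 had a value, and 6 of these lost the call.

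The called genes that were higher in COL included Lyz2, Spp1 and Inpp5d, which myeloid cells express. Lyz2, lysozyme, had 1, 0, 38 and 58 UMIs in members, Spp1, osteopontin, had 1, 2, 64 and 44, and Inpp5d, a phosphatase of microglia and blood cells, had 1, 3, 70 and 55. The COL counts stood above the NS counts for each gene, and relative to all UMIs the COL to NS ratio was 44.7 (95% counting interval 7.84 to 1785) for Lyz2, 16.8 (5.59 to 82.6) for Spp1 and 14.6 (5.55 to 54.3) for Inpp5d. The edgeR adjusted p-values were 0.047, 0.0451 and 0.0451. A further 5 genes were higher outside the rule for naming and were picked out after their values were seen. Ly86 had 1, 0, 64 and 34 UMIs, Fyb 1, 2, 49 and 30, Dock8 2, 0, 41 and 30, C4b 0, 0, 34 and 29 and Gm14005 0, 0, 36 and 16.

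Lyz2, Spp1 and Inpp5d were higher in both COL libraries in all 4 cell types measured. Lyz2 stood at 0.631, 0, 10.2 and 32.1 CPM in Necab1 neurons, 0, 0.40, 8.7 and 33.9 CPM in Lef1/Synpo2 neurons, 0.381, 0.531, 10.3 and 34.7 CPM in GABA neurons and 0, 0, 40.2 and 109 CPM in oligodendrocytes. Spp1 stood at 0.631, 2.01, 17.2 and 24.4 CPM in Necab1 neurons and 0.444, 1.81, 35.4 and 149 CPM in oligodendrocytes. A UMI of Lyz2 was found in 1.09%, 0%, 17.4% and 47.2% of members, with at most 4 in 1 nucleus. The other genes were less evenly spread, since in COL replicate 1 a single nucleus held 25 of the 70 Inpp5d UMIs and 17 of the 64 Spp1 UMIs, and in COL replicate 2 a single nucleus held 14 of the 55 Inpp5d UMIs. With the nucleus holding most UMIs of the gene left out of each library, 0, 1, 47 and 41 UMIs of Spp1 and 0, 2, 45 and 41 of Inpp5d remained. Over the 5 macrophage markers, the sum in members was 5.05, 9.07, 20.4 and 24.4 CPM, against 1.78, 3.32, 95.7 and 372 CPM in oligodendrocytes. Of the 5 microglial markers, Inpp5d alone was called, the changes ran from −0.67 to 3.91 on the log2 scale, and their sum in members was 32.2, 78.6, 49.4 and 104 CPM, so the groups overlapped. Mrc1, Ms4a7 and Arg1 were at 0 UMIs in the members of both NS libraries. The part of macrophage and microglial RNA in these calls was not tested.

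Reln was higher in COL as well. It encodes the secreted glycoprotein reelin and lies on chromosome 5 from 21884454 to 22344702 on the minus strand. Its level was 20.8, 12.1, 52.4 and 84.7 CPM in Necab1 neurons, so both COL libraries stood above both NS libraries (log2 fold change 1.99 ± 0.303 (SE), edgeR adjusted p = 0.0451). A UMI was found in 13%, 5.41%, 19.1% and 25.8% of members. In Lef1/Synpo2 neurons Reln stood at 8.52, 8.09, 14.3 and 22.3 CPM, in GABA neurons at 64.6, 82.7, 111 and 79.7 CPM and in oligodendrocytes at 12.4, 12.4, 14.9 and 13.1 CPM. The difference of its change between the neuron types was 0.97 ± 0.288 (SE) on the log2 scale and did not pass (edgeR adjusted p = 0.787).

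The other named genes that were higher in COL were Taco1, Tcerg1l, Zswim6 and Mir6236. Zswim6 stood at 87.7, 78.6, 169.7 and 165 CPM in Necab1 neurons (log2 fold change 1.04 ± 0.162 (SE), edgeR adjusted p = 0.0451) and at 129.7, 136, 173 and 151 CPM in Lef1/Synpo2 neurons. The difference of its change between Necab1 and Lef1/Synpo2 neurons was 0.80 ± 0.153 (SE), with an edgeR adjusted p of 0.151. Zswim6 was higher in both COL libraries in GABA neurons too, at 126, 124, 220 and 151 CPM. The same held in oligodendrocytes, at 251, 259, 348 and 326 CPM. Taco1, a translational activator of mitochondria, stood at 11.4, 9.07, 33 and 34.9 CPM (log2 fold change 1.73 ± 0.296 (SE)), and it was higher in both COL libraries in oligodendrocytes too, at 12, 9.37, 28.9 and 29.9 CPM. Tcerg1l rose by 1.1 ± 0.203 (SE) and Mir6236 by 0.98 ± 0.181 (SE) on the log2 scale. Mir6236 stood at 116, 129.9, 205 and 223 CPM in oligodendrocytes. Tcerg1l was higher in both COL libraries in Lef1/Synpo2 neurons, GABA neurons and oligodendrocytes too.

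Genes that were lower in COL included Ptgds, Cox4i1, Ndufa11 and Ndufb10. Ptgds, prostaglandin D synthase, a transcript of oligodendrocytes and the meninges, stood at 155, 403, 19.9 and 63.1 CPM in Necab1 neurons and 714, 1269, 122 and 247 CPM in oligodendrocytes. Its log2 fold change was −2.82 ± 0.494 (SE), with an edgeR adjusted p of 0.047. Cox4i1, a subunit of cytochrome oxidase, stood at 80.8, 98.7, 18 and 33.8 CPM (−1.83 ± 0.268 (SE)), and Ndufa11 (−2.25) and Ndufb10 (−2.2), both of complex I, were lower too. Tubb2a, a tubulin, had a log2 fold change of −1.68, Bex3 −1.62 and Ggact −1.6. Ndufa11, Ndufb10, Tubb2a, Bex3 and Ggact were lower in both COL libraries in Lef1/Synpo2 neurons, GABA neurons and oligodendrocytes too. In oligodendrocytes Tubb2a stood at 74.6, 62.8, 10.9 and 28.4 CPM and Bex3 at 51.1, 39.0, 7.87 and 15.1 CPM. Nell1os (−1.95) and Nrg3os (−1.82) carry the names of antisense partners of Nell1 and Nrg3. Whether reads were counted by strand is not given in the sources used here. Both genes were lower in both COL libraries in Lef1/Synpo2 neurons and GABA neurons too, but not in oligodendrocytes.

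The lists of respiratory chain and ribosomal protein genes were lower in COL in every cell type measured. All 15 nuclear-encoded respiratory chain genes had a negative log2 fold change in Necab1 neurons, with a median of −1.30 against 0.00 over all genes. Of the 15, 2 passed, Cox4i1 and Cox6c (−1.6), where 0.436% of all genes tested were called lower. An unadjusted p under 0.05 in edgeR was found for 13 of the 15, against 17.3% of all genes tested. The 15 genes summed to 656, 749, 236 and 406 CPM in Necab1 neurons and 555, 644, 244 and 401 CPM in Lef1/Synpo2 neurons. The sum was 894, 931, 297 and 473 CPM in GABA neurons and 1143, 1176, 315 and 648 CPM in oligodendrocytes. The 13 ribosomal protein genes were likewise all negative, with a median of −1.30, but edgeR and DESeq2 called 0 of them, while 9 had an unadjusted p under 0.05 in edgeR, against 17.3% of all genes tested. Leaving out COL replicate 1 brought the medians to −0.88 and −0.75, and leaving out COL replicate 2 to −1.72 and −1.90. The median share of mitochondrial UMIs in members was 0.152%, 0.109%, 0.0277% and 0.104%, lowest in COL replicate 1, and its part in these differences was not tested.

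Most lists of neuronal function held 0 called genes between COL and NS, where 0.109% of all genes tested were called higher and 0.436% lower. Lists of this size would hold about 0 calls at those shares. A count of 0 therefore does not show that a list was unchanged. The counts cover tested genes only, which were 7 of 14 immediate early genes and 12 of 22 injury genes. Listed genes with too few UMIs were not tested. Atf3, of the injury list, had 0, 0, 12 and 7 UMIs in members. With edgeR, 0 genes were called among the transcription factors, the markers of thalamic nuclei, the channels, the receptors, the release and adhesion genes, the peptides, the immediate early genes, the injury genes and the heat shock genes. At an unadjusted p under 0.05 these lists held between 1 and 4 genes each, among them 4 of 7 heat shock genes and 4 of 11 peptide genes, against 17.3% of all genes tested, and DESeq2 called 1 gene, Cck, in the peptide list and 0 in the others. The sole call among the calcium-binding proteins was Calm2, calmodulin, at 236, 233, 107 and 128 CPM (−0.97 ± 0.154 (SE), edgeR adjusted p = 0.0451), and it was also lower in COL in oligodendrocytes, at 219.9, 189.7, 73.9 and 126 CPM. Hmox1, a haem-degrading enzyme on the injury list, had 0, 1, 31 and 21 UMIs and did not pass (edgeR adjusted p = 0.057). The peptide genes Cck, at 25.9, 45.3, 10.2 and 7.75 CPM, and Tac1, at 19.6, 15.1, 4.3 and 3.32 CPM, had adjusted p-values of 0.0547 and 0.057 in edgeR and did not pass there.

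Apoe and Abca1, which the study follows, did not pass in Necab1 neurons. Apoe, the lipid carrier, stood at 136, 138, 45.7 and 181 CPM, where COL replicate 1 was the lowest and COL replicate 2 the highest of the 4 libraries (log2 fold change −0.32 ± 0.438 (SE), edgeR adjusted p = 0.772). The same order was seen in oligodendrocytes, at 387, 368, 144 and 541 CPM. Without COL replicate 1 the log2 fold change of Apoe was 0.39, and without COL replicate 2 it was −1.52 and passed. Abca1 stood at 10.7, 8.06, 12.6 and 21 CPM (0.79 ± 0.40 (SE), edgeR adjusted p = 0.344). Cntnap3 and Snx31 differed between the groups by 0.06 ± 0.25 (SE) and 0.12 ± 0.25 (SE) on the log2 scale and did not pass.

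**Figure D5:**
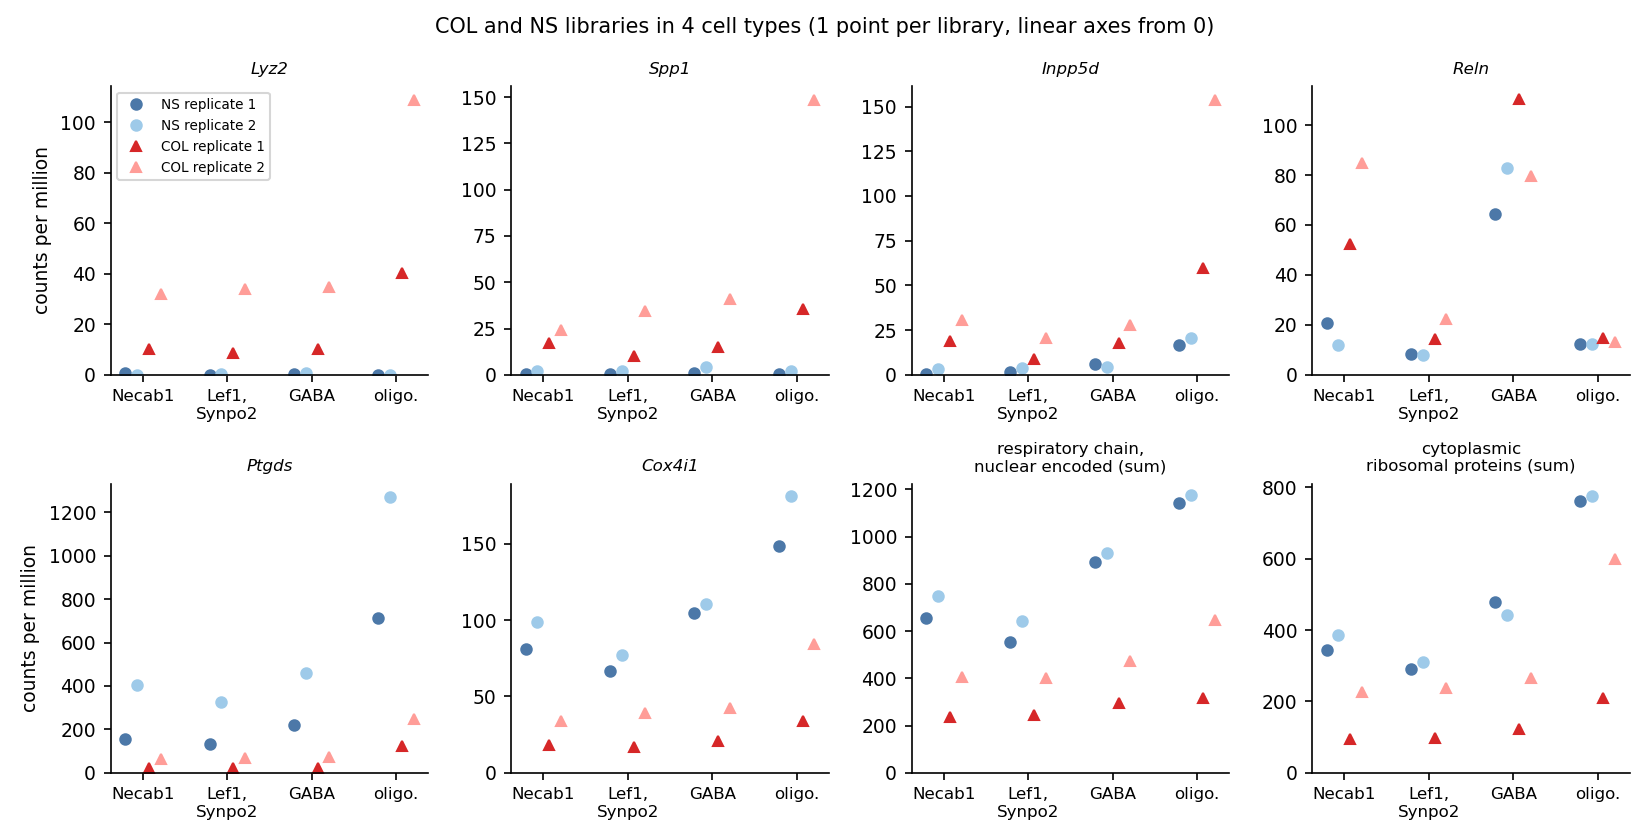
CPM (vertical, linear from 0) of 6 genes and of 2 summed lists in Necab1 neurons, Lef1/Synpo2 neurons, GABA neurons and oligodendrocytes, with circles for the NS and triangles for the COL libraries. Lyz2, Spp1 and Inpp5d are higher and Ptgds, Cox4i1 and both sums lower in COL in each of the 4 cell types, while Reln is nearly level in oligodendrocytes.

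Whether the change in COL differed between Necab1 and Lef1/Synpo2 neurons was tested as an interaction in edgeR with the library as a block. Of 16951 genes, 2 (0.0118%) were called, and 978 had an unadjusted p under 0.05. The number called was 149 without NS replicate 1, 71 without NS replicate 2, 19 without COL replicate 1 and 16 without COL replicate 2. Bnc2, which encodes the zinc-finger protein basonuclin 2, stood at 27.8, 59.4, 8.06 and 9.97 CPM in Necab1 neurons and 10.2, 10.5, 11.4 and 15.8 CPM in Lef1/Synpo2 neurons, a difference of change of −2.47 ± 0.355 (SE) with an edgeR adjusted p of 0.0129. Its UMIs came from few members, with 44, 59, 30 and 18 UMIs in 11, 7, 12 and 12 nuclei, and 29 of the 59 from a single nucleus in NS replicate 2.

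Zbtb16, a zinc-finger transcription factor gene, was the other call. It stood at 13.3, 40.3, 27.7 and 42.1 CPM in Necab1 neurons, where the groups overlapped, and at 11, 21.8, 65.8 and 81.4 CPM in Lef1/Synpo2 neurons, where both COL libraries were higher. The difference of change was −1.66 ± 0.268 (SE) with an edgeR adjusted p of 0.0355. In oligodendrocytes Zbtb16 stood at 50.7, 61.3, 282 and 240.0 CPM, and in GABA neurons at 25.9, 33.8, 76.8 and 73.1 CPM, so both COL libraries were higher in both types. Of the 40 UMIs in the Necab1 neurons of NS replicate 2, 19 came from 1 nucleus. With the nucleus holding most Zbtb16 UMIs left out of each library, a choice made after the data were seen, the Necab1 neurons stood at 10.99, 21.4, 23.8 and 37.9 CPM, and both COL libraries were higher. The call of Zbtb16 was lost without NS replicate 2.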

How the data were processed

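Nuclei were isolated from thalamic tissue and sequenced by droplet-based snRNA-seq. UMI counts per gene and nucleus were deposited by the authors, who used Cell Ranger 1.2.0 and mm10 according to the submitters' processing notes. Nuclei at or above 5% mitochondrial UMIs were left out here. The gate, the compared types and the gene lists were chosen with earlier results of these data known. UMIs were summed per library and type and tested with edgeR 4.0.16 in R 4.3.3 (TMM scaling, filterByExpr, quasi-likelihood test, Benjamini-Hochberg adjustment at 0.05 over all genes tested). The comparison of types had the library as a block, and the comparison of COL with NS used no covariate. The SE of a log2 fold change was derived from the test, as its absolute value divided by the square root of the quasi-likelihood F statistic. Each library pooled 3 mice, so p-values between COL and NS measure the spread between pooled libraries. With the library as a block, the other edgeR p-values rest on how much the difference within a library varied over libraries. Named genes were the gate genes, the other markers, Apoe and Abca1, and the 10 largest log2 fold changes in each direction with an adjusted p under 0.05 and at least 20 CPM in the higher group. These also needed groups that did not overlap, or the same direction in all 4 libraries between types, and gate genes, mitochondrial genes and Gm or Rik symbols were left out. In the gene lists, the 2 to 4 members with the smallest adjusted p were named, and further members were chosen after their values were seen. A few genes are not reported here and were left out of the gene lists. Oligodendrocytes, with at least 4 of 5 of their markers and at most 2 neuron markers, gave the level in a type that should lack a neuronal gene. The median oligodendrocyte held 4933, 4852, 5488 and 5714.5 UMIs, fewer than the median member. The same number of UMIs per nucleus therefore gives a higher CPM in oligodendrocytes. Fits were tested on simulated data, and alternatives used DESeq2 1.42.0, other filters and gates, and each library left out. Gene positions came from an mm10 annotation.

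Shares had exact 95% Clopper-Pearson intervals and two-sided exact permutation tests (SciPy 1.17.1), and thinning drew 4000 UMIs from each nucleus. The counts of replicate libraries differed by more than sampling noise (chi-square per degree of freedom 2.73 in NS and 4.54 in COL), so none was treated as a duplicate deposit. The difference in log CPM between replicates 1 and 2 correlated at 0.126 between NS and COL members over 11951 genes. Over the 3490 genes with at least 50 CPM on average, the correlation was 0.184. There were 2 replicate numbers only.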

Additional observations from a re-analysis of the deposited data

Results flagged for a closer look

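A test of the difference in edgeR set 2 genes apart, Bnc2 and Zbtb16, whose change in COL against NS differed between Necab1 and Lef1/Synpo2 neurons. For Bnc2 the difference of change was −2.47 on the log2 scale (edgeR adjusted p = 0.0129). In Necab1 neurons its level was lower in both COL libraries than in both NS libraries, while in Lef1/Synpo2 neurons it was 10.2 and 10.5 CPM in the NS libraries and 11.4 and 15.8 CPM in the COL libraries.

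For Zbtb16 the difference of change was −1.66 on the log2 scale (edgeR adjusted p = 0.0355). Its level was higher in both COL libraries in Lef1/Synpo2 neurons, GABA neurons and oligodendrocytes, whereas the groups overlapped in Necab1 neurons. That overlap rested on 1 nucleus, which held 19 of the 40 UMIs in NS replicate 2. With the nucleus holding most Zbtb16 UMIs left out of each library, the level in Necab1 neurons was 10.99 and 21.4 CPM in NS and 23.8 and 37.9 CPM in COL.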

How the results depend on the processing

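The number of genes called between COL and NS in Necab1 neurons, 65, depended on the setting. It was 820 without a filter on low counts, 269 with a gate of at least 1 Tcf7l2 UMI, and 1 with at least 8000 UMIs, with at least 5 Necab1 UMIs, without the 5% of members with the most UMIs and with plain library sizes. Leaving out 1 library gave between 331 and 1059. With DESeq2 it was 91 and in members thinned to 4000 UMIs 83. With the replicate number as a block it was 1105, but the labels do not link libraries that share a number. The differences between replicates correlated at 0.126 between the groups. The cause was not tested.

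Between the types, 3172 genes were called, 2006 with DESeq2, 1524 in thinned members, 886 without the library block and between 2237 and 2659 without 1 library. For the difference of change, 2 genes were called, 1 with DESeq2, 40 without a filter and between 16 and 149 without 1 library. In group means without the library block edgeR called 0, with 322 genes at an unadjusted p under 0.05. Bnc2 lost its call in that fit, and Zbtb16 in that fit, with DESeq2 and without NS replicate 2. Fits that left out a library assumed that the lone sample of its group varied like the others.

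Log2 fold changes between COL and NS without 1 library lay between −1.52 and 0.39 for Apoe (0.39 without COL replicate 1, −1.52 without COL replicate 2), so its direction changed. The difference in share of all nuclei, 1.38 percentage points, was between 0.590 and 2.17 without 1 library. Over nuclei with at least 4000 UMIs the group means were 1.31% in NS and 2.51% in COL, and after thinning those nuclei the difference was 0.132. The alternatives with plain library sizes and with nuclei over 0.2% of another type's markers left out were chosen after seeing the data. Depth limits low genes most in NS replicate 2, whose members were the fewest and shallowest.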
